A study of Homo sapiens with 8 samples.

Results

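Homeobox genes of the developmental families were followed in RNA-seq of control and sodium benzoate (SB)-treated cells. Members were every gene of the deposited table with a symbol of the HOXA, HOXB, HOXC and HOXD clusters or of the PAX, MEIS, PBX, IRX, LHX, DLX, MSX and EMX families, or of the family of SIX2, SIX4 and SIX5. They came to 71 of the 14526 genes, 35 of them HOX genes and 36 of the other families. RefSeq lists 85 symbols of these families, and the 14 without a row in the table (HOXB1, HOXC12, HOXD1, HOXD12, IRX1, IRX2, IRX4, LHX3, LHX5, PAX4, PAX5, PAX8, SIX3 and SIX6) were not analysed here. The samples, labelled HepG2 (a human liver cancer cell line), were grown in DMEM with 10% FBS, 4 replicates without SB and 4 replicates given 10 mM SB for 24 h before harvest. SB is the sodium salt of benzoic acid, a food preservative, and the study asked how the transcriptome responds when SB raises benzoylation of histone lysines. The series calls the replicates biological, and nothing used here says that each came from a culture of its own, so that p-values measure the spread between these samples.

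Values are RPKM, reads scaled to gene length and to library size, so that levels of different genes can be set side by side. The whole reads behind them, recovered from the values, came to between 36990091 and 44492817 per control library and between 37161801 and 44878446 per SB-treated library. The label was checked against 20 hepatocyte genes. Of these, 2 had a row, among them TF, the iron carrier of plasma, at 0.192 ± 0.0188 RPKM in control and 0.379 ± 0.0748 RPKM in SB-treated replicates (SD, n = 4). The other 18, albumin (ALB), AFP, APOA1 and HNF4A among them, had no row, so the hepatocyte label is not borne out by these genes. Control replicate 1 stood apart in its counts. Divided by its degrees of freedom, the chi-square between control replicate 1 and the other controls was 33.4 to 38.4, against 1.52 to 3.80 for every other pair within a group. For 36 of the 71 members its value was the highest of the controls and for 16 the lowest, against 5949 and 5995 of all 14526 genes.

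Homeobox genes encode transcription factors that bind DNA through a homeodomain. The HOX genes sit in 4 clusters, and along each cluster the order of the genes follows the order in which they are used from head to tail of the embryo, with low numbers anterior and high numbers posterior. PBX and MEIS proteins, of the TALE group, bind DNA together with HOX proteins, and PAX, DLX and other homeobox proteins pattern sense organs, kidney, neural tube and face. PAX proteins bind through a paired domain, and PAX1 and PAX9 have no homeodomain. HOX clusters are held silent by Polycomb complexes and kept active by MLL complexes, and retinoic acid is a known inducer of their anterior genes.

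Promoter windows of 300 bases (250 before and 50 after the start) were in the RefSeq table (GRCh38.p14) for 41 of the 71 members. CCAAT, searched on both strands and so also as ATTGG, was in 27 of the 41 windows (65.9%), in 36.4% of the windows of 10651 genes of the expression table and in 35.7% of all 27305 windows. Shown are the windows of 4 members with large falls described below, and of HOXD8, which lay in a HOX cluster and was higher with SB. Capitals mark CCAAT or ATTGG.
HOXA10 (chr7:27179812-27180111, minus strand): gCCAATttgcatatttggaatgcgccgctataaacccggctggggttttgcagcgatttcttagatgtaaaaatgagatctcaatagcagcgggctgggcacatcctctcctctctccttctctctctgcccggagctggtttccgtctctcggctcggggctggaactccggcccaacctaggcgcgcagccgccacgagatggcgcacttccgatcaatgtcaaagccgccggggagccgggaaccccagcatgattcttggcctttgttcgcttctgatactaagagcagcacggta
HOXA13 (chr7:27200042-27200341, minus strand): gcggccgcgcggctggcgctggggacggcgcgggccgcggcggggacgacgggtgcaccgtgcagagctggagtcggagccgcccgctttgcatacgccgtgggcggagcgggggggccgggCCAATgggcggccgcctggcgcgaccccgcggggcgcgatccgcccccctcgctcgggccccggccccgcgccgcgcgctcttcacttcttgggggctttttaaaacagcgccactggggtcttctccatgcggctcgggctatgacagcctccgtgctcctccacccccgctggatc
HOXC4 (chr12:54016638-54016937, plus strand): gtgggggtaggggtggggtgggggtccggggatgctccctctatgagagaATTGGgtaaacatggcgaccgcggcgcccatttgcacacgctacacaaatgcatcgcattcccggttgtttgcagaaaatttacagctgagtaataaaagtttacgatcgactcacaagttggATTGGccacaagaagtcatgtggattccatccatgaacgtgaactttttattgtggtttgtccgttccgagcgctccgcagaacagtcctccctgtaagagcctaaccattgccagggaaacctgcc
DLX2 (chr2:172102851-172103150, minus strand): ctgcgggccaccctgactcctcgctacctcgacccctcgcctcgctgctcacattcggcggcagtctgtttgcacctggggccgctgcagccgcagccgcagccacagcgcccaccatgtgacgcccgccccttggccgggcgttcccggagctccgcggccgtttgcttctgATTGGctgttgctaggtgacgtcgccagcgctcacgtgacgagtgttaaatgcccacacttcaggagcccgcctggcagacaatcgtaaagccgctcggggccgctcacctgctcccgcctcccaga
HOXD8 (chr2:176129455-176129754, plus strand): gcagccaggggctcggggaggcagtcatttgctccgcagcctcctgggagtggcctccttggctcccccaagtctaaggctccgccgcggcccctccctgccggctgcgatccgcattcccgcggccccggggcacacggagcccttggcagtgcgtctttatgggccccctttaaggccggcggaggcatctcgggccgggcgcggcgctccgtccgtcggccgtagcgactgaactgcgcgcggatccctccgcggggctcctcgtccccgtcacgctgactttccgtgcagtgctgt
The HOXC4 window is also the window that RefSeq gives for HOXC5. HOXC4 held 2 matches, HOXA10, HOXA13 and DLX2 held 1 each, and HOXD8 held 0. Other members broke this pattern, since HOXA11, HOXD11, MEIS2 and PAX2, which were lower, held 0, and LHX2, which was higher, held 1. The members' windows had a median of 62.0% G and C and 23 CpG, against 65.3% and 26 in the windows of genes of the table. TGATTNAT, the form bound by HOX with PBX, was in 3 of the 41 windows (7.32%, against 1.31% of the windows of genes of the table), those of HOXA2, HOXD11 and LHX4. AGGTCA, the half-site of nuclear receptors, was in the DLX1 window alone of the 41 (2.44%, against 9.39%). Neighbouring matches can share bases, and a match is a description of letters.

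Most members were lower in the SB-treated replicates. By limma on log2(RPKM + 1), with p-values adjusted over all 14526 genes, 52 of the 71 members were lower (73.2%), where 32.6% of all genes were, and 5 were higher (7.04%), where 33.0% of all genes were. The remaining 14 had an adjusted p of 0.05 or more. Every SB-treated value lay below every control value for 48 members, against 30.5% of all genes, and above for 5 members, against 31.0% of all genes. For these 48 and 5 members the two-sided exact permutation test of 4 against 4 gave p = 0.0286, the smallest that the design allows. On this scale 23 of the 52 were at -0.5 or lower, where 5.45% of all genes were called lower by as much. On the same scale 0 members reached 0.5, which 5.12% of all genes did. The median log2 fold change was -0.37 over the members and 0.0045 over all genes. Because 1 is added to each value, fold changes are understated, most for genes near or under 1 RPKM. The counts past -0.5 and 0.5 therefore hold for this scale only. With 0.1 added instead, the median was -0.44 over the members and 0.0072 over all genes. In the alternatives that kept every replicate, the log2 fold change of PAX1, a member under 1 RPKM, ran from 0.12 to 0.61. Summed over the 71 members, the control replicates held 735 ± 25.9 RPKM and the SB-treated replicates 492 ± 8.20 RPKM (SD, n = 4). The sum over all 14526 genes was lower with SB as well, 404836 ± 2390 RPKM in control and 355651 ± 1050 RPKM in SB-treated replicates. Summed levels of clusters and families given below are to be read beside that fall.

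**Figure D1:**
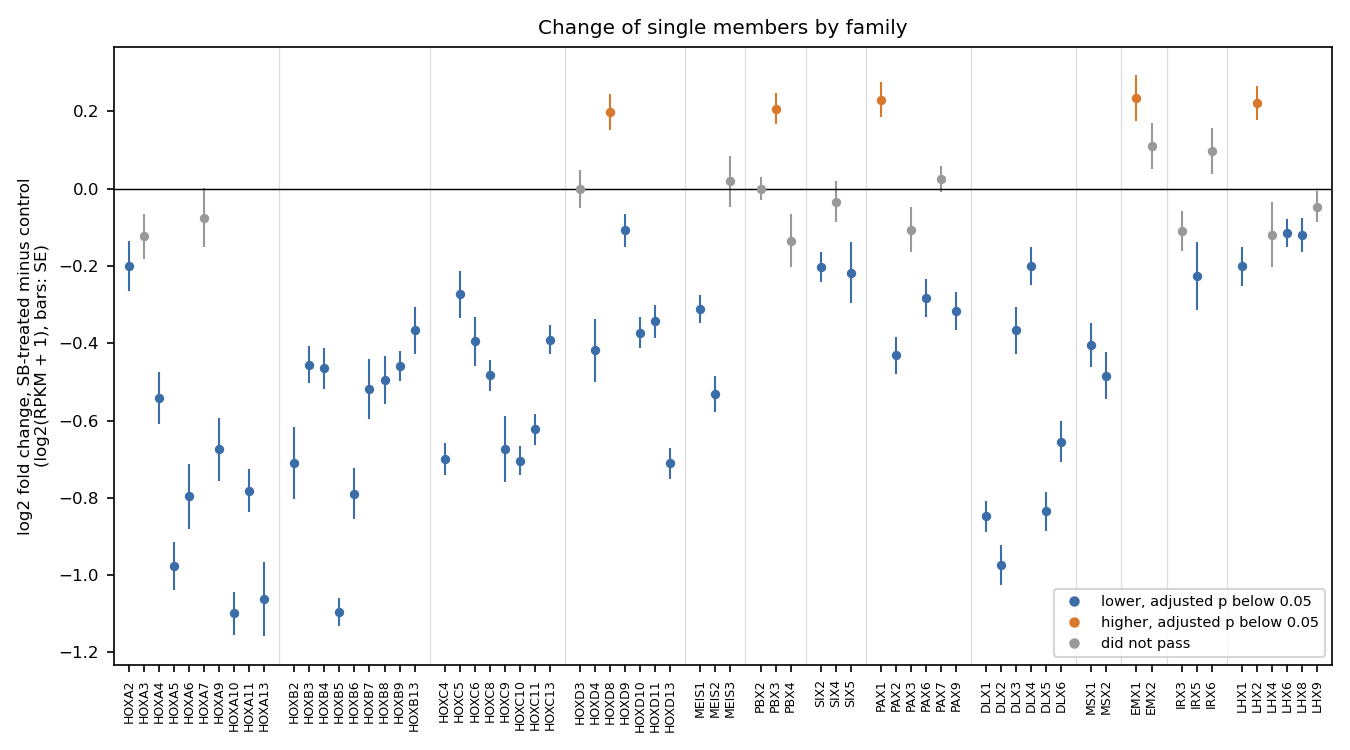
Log2 fold change on the log2(RPKM + 1) scale (SB-treated minus control) of members by family, with the limma standard error as bars (blue lower, orange higher, grey not passing the test). The 5 members called higher are HOXD8, PBX3, PAX1, EMX1 and LHX2, and none of the members shown passes 0.5 upward on this scale.

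HOX genes made up 17 of the 23 members past -0.5. Of the 35 HOX genes, 31 were lower, HOXD8 was higher, and HOXA3, HOXA7 and HOXD3 did not pass the test, with a median log2 fold change of -0.49. Of the 36 other members, 21 were lower (58.3%) and 4 higher (11.1%), with a median of -0.20. Called lower were 88.6% of the HOX genes and 32.6% of all genes, and called higher 2.86% and 33.0%. The same shares of all genes stand beside the counts by stretch that follow. HOX genes 1 to 4, the anterior ones, had 8 of 10 lower, HOX genes 5 to 8 had 9 of 11, and HOX genes 9 to 13, the posterior ones, had 14 of 14. The median percentages of control in these stretches were 67.2%, 65.8% and 60.5%, and the difference between stretches was not tested. Among the 14 posterior genes, HOXD9 had overlapping groups (limma adjusted p = 0.0431) and lost its call in alternative analyses described below. Posterior genes also had the highest summed level, with of 270.4 ± 5.38 RPKM in control and 179 ± 3.32 RPKM in SB-treated replicates (SD, n = 4).

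**Figure D2:**
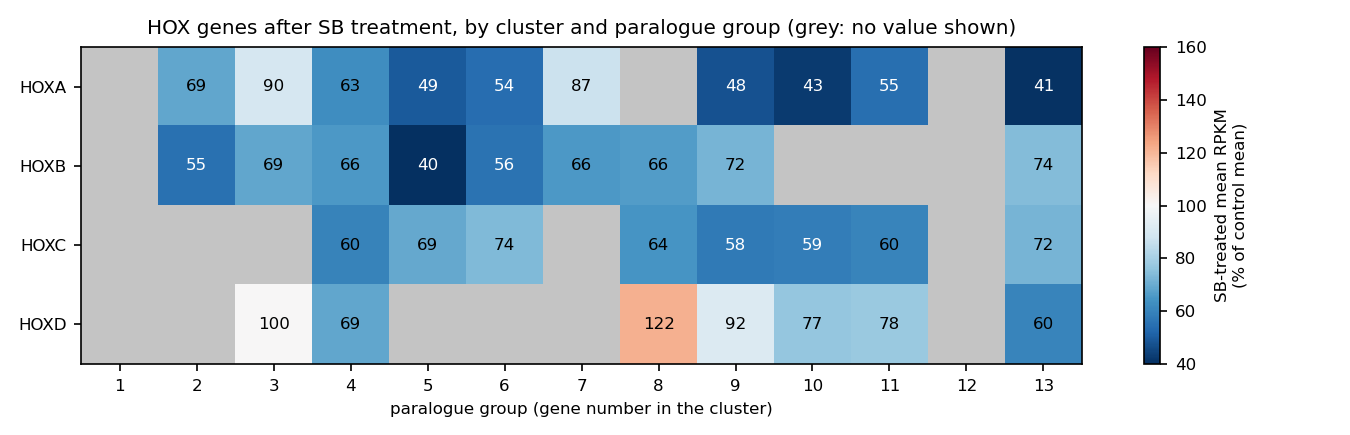
SB-treated mean as a percentage of the control mean for HOX genes, by cluster (rows) and number (columns), with mid-grey cells where no value is shown. HOXB5, HOXA13 and HOXA10 are the lowest at 39.9%, 40.6% and 42.7%, and HOXD8 is the highest at 122%.

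The HOXA cluster (chr7:27100354-27200091, hg38, from HOXA2 to HOXA13, GENCODE release 44) fell the most by its median, -0.78 on the log2 scale. In this cluster 9 of 11 genes were lower (81.8%, against 32.6% of all genes). Its summed level was 114 ± 5.18 RPKM in control and 59.3 ± 0.970 RPKM in SB-treated replicates (SD, n = 4). HOXA10, a patterning gene of the uterus and limb, measured 15.1, 13.2, 14.04 and 12.3 RPKM in the control replicates and 5.98, 5.76, 5.67 and 5.90 RPKM in the SB-treated replicates, each listed from replicate 1 to 4. HOXA10 fell to 42.7% of control (log2 fold change -1.10, SE 0.056, limma adjusted p = 5.64e-07). Its groups lay far apart, every control replicate being above every SB-treated replicate. HOXA13, which shapes the digits and the genital tract, measured 9.71, 6.71, 6.86 and 7.04 RPKM in the control replicates and 3.03, 2.85, 3.28 and 3.13 RPKM in the SB-treated replicates. It fell to 40.6% (log2 fold change -1.06, SE 0.097, limma adjusted p = 1.14e-05). Control replicate 1 of HOXA13 was the highest of its group, and the groups did not overlap. HOXA5, a gene of lung and trunk patterning, had the highest level of the cluster with 48.3, 39.8, 41.0 and 38.9 RPKM in the control replicates and 20.5, 21.5, 20.8 and 20.3 RPKM in the SB-treated replicates. HOXA5 fell to 49.5% (log2 fold change -0.98, SE 0.063, limma adjusted p = 1.70e-06), and again no replicate of a group reached into the other.

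HOXA9, a gene of blood progenitors and leukaemia, measured 3.03, 2.63, 2.35 and 2.13 RPKM in the control replicates and 0.961, 1.26, 1.34 and 1.27 RPKM in the SB-treated replicates. The HOXA9 mean fell to 47.7% of control (log2 fold change -0.67, SE 0.082, limma adjusted p = 7.03e-05), with groups that did not overlap. HOXA11, active in the uterus and forearm, measured 11.5, 14.03, 12.9 and 13.3 RPKM in the control replicates and 6.69, 7.25, 7.28 and 7.18 RPKM in the SB-treated replicates. HOXA11 fell to 54.8% (log2 fold change -0.78, SE 0.056, limma adjusted p = 2.89e-06), and its SB-treated replicates all lay below the controls. HOXA6 measured 12.4, 16.0, 15.6 and 17.3 RPKM in the control replicates and 8.24, 8.28, 8.75 and 8.09 RPKM in the SB-treated replicates. For HOXA6 the mean fell to 54.4% (log2 fold change -0.80, SE 0.084, limma adjusted p = 2.90e-05), and the groups were apart although the controls ranged widely. HOXA4 measured 5.93, 4.81, 5.07 and 4.77 RPKM in the control replicates and 3.48, 2.87, 3.34 and 3.18 RPKM in the SB-treated replicates, and fell to 62.5% (log2 fold change -0.54, SE 0.067, limma adjusted p = 7.87e-05) without overlap.

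HOXA2, a gene of hindbrain and pharyngeal arches, was near the lower limit of the table, with means of 0.689 and 0.473 RPKM (log2 fold change -0.20, limma adjusted p = 0.0199). Its call was lost without control replicate 2 (adjusted p = 0.0512), without SB-treated replicate 3 (adjusted p = 0.0517) and after a length and GC correction (adjusted p = 0.502). HOXA3 was at 89.9% of control (limma adjusted p = 0.0879) and passed the test without control replicate 4 (adjusted p = 0.0252) and after the length and GC correction (adjusted p = 0.0337). HOXA7 was at 87.1% (adjusted p = 0.407), on as few as 41 reads in a library. In the annotation 62.5% of the exon bases of HOXA7 lie opposite the exons of the antisense RNA HOXA-AS3, and for HOXA6 39.3% do. The library kit keeps the strand of the RNA, but whether the counting used it was not given in the sources used here, so reads of overlapping genes on opposite strands may be mixed. HOXA11 overlaps HOXA11-AS over 27.2% of its exon bases, and a readthrough gene shares 397 exon bases with HOXA9 and 368 with HOXA10.

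**Figure D3:**
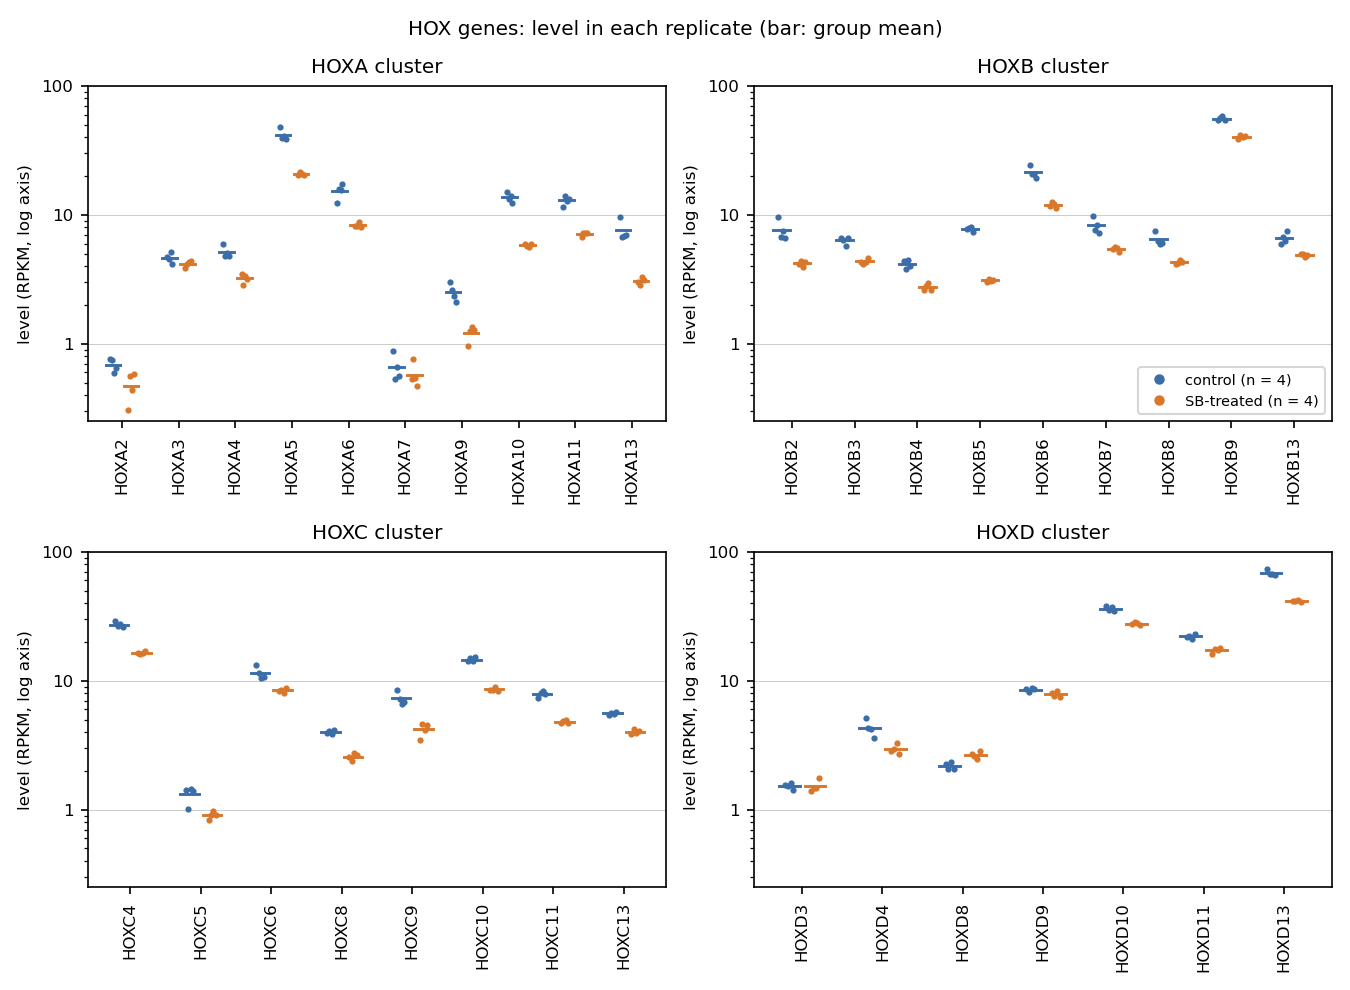
RPKM of HOX genes on a log axis, with 1 point per replicate for control and SB-treated samples, and the means as bars. HOXD13, HOXB9 and HOXA5 have the highest control means, at 68.9, 55.9 and 42.0 RPKM.

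All 9 HOXB genes of the table (chr17:48540894-48728750 from HOXB2 to HOXB13) were lower, against 32.6% of all genes, with a median of -0.49. Their summed level was 125 ± 5.06 RPKM in control and 81.4 ± 1.78 RPKM in SB-treated replicates (SD, n = 4). HOXB5 measured 7.85, 7.88, 8.01 and 7.35 RPKM in the control replicates and 3.04, 3.18, 3.05 and 3.14 RPKM in the SB-treated replicates. HOXB5 fell to 39.9% of control (log2 fold change -1.10, SE 0.036, limma adjusted p = 6.89e-08), the lowest percentage of the 71 members, with narrow groups far apart. HOXB6 measured 24.6, 20.9, 20.7 and 19.5 RPKM in the control replicates and 11.7, 12.6, 12.2 and 11.3 RPKM in the SB-treated replicates. It fell to 55.7% (log2 fold change -0.79, SE 0.066, limma adjusted p = 7.24e-06) without overlap, and 433 of its exon bases are shared with HOXB3 on the same strand. HOXB2, a hindbrain gene, measured 9.57, 6.80, 7.44 and 6.62 RPKM in the control replicates and 4.17, 4.41, 3.95 and 4.35 RPKM in the SB-treated replicates. HOXB2 fell to 55.5% (log2 fold change -0.71, SE 0.093, limma adjusted p = 1.11e-04), the controls spreading more than the SB-treated replicates and the groups not overlapping.

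HOXB7 measured 9.82, 7.61, 8.42 and 7.27 RPKM in the control replicates and 5.49, 5.67, 5.50 and 5.13 RPKM in the SB-treated replicates. HOXB7 fell to 65.8% (log2 fold change -0.52, SE 0.077, limma adjusted p = 2.50e-04), with no overlap. HOXB8, used by myeloid and microglial progenitors, measured 7.54, 6.30, 5.99 and 6.11 RPKM in the control replicates and 4.14, 4.25, 4.47 and 4.33 RPKM in the SB-treated replicates. HOXB8 fell to 66.3% (log2 fold change -0.49, SE 0.062, limma adjusted p = 8.40e-05), with its groups apart. HOXB9, a thoracic gene, had the highest level of the cluster with 54.8, 56.5, 58.5 and 54.0 RPKM in the control replicates and 38.8, 41.5, 40.4 and 40.9 RPKM in the SB-treated replicates. It fell to 72.2% (log2 fold change -0.46, SE 0.039, limma adjusted p = 7.24e-06), also without overlap. HOXB3, HOXB4 and HOXB13, the last a gene of prostate and hindgut, fell to 68.6%, 65.8% and 73.9% of control.

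The HOXC cluster (chr12:53938831-54056030 from HOXC13 to HOXC4) was lower in all 8 genes of the table, against 32.6% of all genes, with a median of -0.55. The HOXC genes had a summed level of 79.5 ± 2.54 RPKM in control and 49.9 ± 0.897 RPKM in SB-treated replicates (SD, n = 4). HOXC4, the highest of them and with 2 CCAAT matches in its window, measured 29.3, 26.5, 27.5 and 26.0 RPKM in the control replicates and 16.4, 16.0, 16.4 and 16.9 RPKM in the SB-treated replicates. HOXC4 fell to 60.1% (log2 fold change -0.70, SE 0.042, limma adjusted p = 1.17e-06), and the groups did not overlap. HOXC10, a lumbar patterning gene, measured 14.1, 14.9, 14.1 and 15.2 RPKM in the control replicates and 8.50, 8.47, 8.92 and 8.36 RPKM in the SB-treated replicates. It fell to 58.7% (log2 fold change -0.70, SE 0.037, limma adjusted p = 6.65e-07), with each SB-treated replicate below each control. HOXC9, which marks the thoracic cord, measured 8.49, 7.17, 6.65 and 6.86 RPKM in the control replicates and 3.48, 4.62, 4.19 and 4.53 RPKM in the SB-treated replicates. HOXC9 fell to 57.6% (log2 fold change -0.67, SE 0.086, limma adjusted p = 9.54e-05), its SB-treated replicates spreading more widely than those of HOXC4. HOXC11 measured 7.41, 8.06, 8.29 and 7.92 RPKM in the control replicates and 4.68, 4.89, 4.92 and 4.66 RPKM in the SB-treated replicates, and fell to 60.5% (log2 fold change -0.62, SE 0.040, limma adjusted p = 1.59e-06) without overlap. HOXC5, HOXC6, HOXC8 and HOXC13, the last a gene of hair and nail, fell to 69.2%, 73.7%, 64.5% and 72.0%. HOXC4 and HOXC6 share 484 exon bases on the same strand, and 67.3% of the exon bases of HOXC5 lie in a lncRNA of that strand, so their reads may be split or shared.

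Among the 7 HOXD genes (chr2:176092721-176173102 from HOXD13 to HOXD3) 5 were lower (71.4%, against 32.6% of all genes), and the median was -0.34. Its summed level was the highest of the clusters, 144 ± 5.04 RPKM in control and 102 ± 1.45 RPKM in SB-treated replicates (SD, n = 4). HOXD13, a gene of digit formation and the member with the highest level, measured 73.7, 67.4, 67.8 and 66.6 RPKM in the control replicates and 41.5, 41.7, 42.2 and 41.1 RPKM in the SB-treated replicates. HOXD13 fell to 60.5% of control (log2 fold change -0.71, SE 0.039, limma adjusted p = 8.09e-07), and its groups were widely apart. HOXD10, HOXD11 and HOXD4 fell to 76.6%, 77.9% and 68.7%, each without overlap. HOXD9 measured 8.56, 8.19, 8.79 and 8.59 RPKM in the control replicates and 7.99, 7.64, 8.35 and 7.42 RPKM in the SB-treated replicates. It was at 92.0% of control (log2 fold change -0.11, SE 0.042, limma adjusted p = 0.0431), with overlapping groups, and lost its call in 11 of the alternative analyses (adjusted p between 0.0532 and 0.779), among them those without control replicate 3 or 4 or without SB-treated replicate 1, 2 or 4.

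HOXD8 went the other way. HOXD8 measured 2.27, 2.06, 2.36 and 2.08 RPKM in the control replicates and 2.71, 2.62, 2.46 and 2.86 RPKM in the SB-treated replicates. It rose to 122% of control (log2 fold change 0.20, SE 0.047, limma adjusted p = 0.00422), each SB-treated replicate being above each control, and 24.4% of its exon bases lie opposite HOXD-AS2. HOXD3 measured 1.54, 1.54, 1.61 and 1.43 RPKM in the control replicates and 1.403, 1.48, 1.47 and 1.77 RPKM in the SB-treated replicates, a log2 fold change of -0.00096 (SE 0.049, limma adjusted p = 0.988), with overlapping groups. Its direction changed with the scaling and with the library left out.

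Of the HOX cofactors, MEIS1 and MEIS2 were lower and MEIS3 did not pass the test. MEIS1, a partner of HOX proteins in blood and limb, was the highest of the family with 17.6, 16.2, 16.5 and 16.2 RPKM in the control replicates and 13.3, 12.98, 13.2 and 13.4 RPKM in the SB-treated replicates. MEIS1 fell to 79.4% (log2 fold change -0.31, SE 0.037, limma adjusted p = 5.78e-05), with no overlap. MEIS2 measured 9.87, 8.97, 8.63 and 8.41 RPKM in the control replicates and 5.97, 5.88, 5.80 and 5.88 RPKM in the SB-treated replicates. MEIS2 fell to 65.6% (log2 fold change -0.53, SE 0.046, limma adjusted p = 8.98e-06), and the groups were apart. MEIS3 was at 101% of control, and without control replicate 1 its log2 fold change was -0.045 (adjusted p = 0.322).

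Among the PBX genes, which encode partners of HOX proteins, PBX3 was higher. PBX3 measured 9.02, 8.40, 7.998 and 8.69 RPKM in the control replicates and 9.93, 9.98, 9.75 and 10.3 RPKM in the SB-treated replicates. PBX3 rose to 117% (log2 fold change 0.21, SE 0.040, limma adjusted p = 0.00139), its SB-treated replicates all above the controls. PBX2 was at 100.03% of control and PBX4 at 85.5% (limma adjusted p = 0.993 and 0.115), and PBX4 was called lower without control replicate 1 (adjusted p = 0.00863). PBX2 was called higher without TMM factors (log2 fold change 0.091, adjusted p = 0.0234) and lower after the length and GC correction (log2 fold change -0.16, adjusted p = 0.00436). The gene length behind the PBX2 value was 22474 bases, against 4368 exon bases in the annotation, so its RPKM is understated beside other genes.

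The DLX genes pattern forebrain interneurons, face and skeleton and lie in pairs. All were lower (6 of 6, against 32.6% of all genes), with a median of -0.74. Their summed level was 72.0 ± 2.14 RPKM in control and 37.8 ± 0.990 RPKM in SB-treated replicates (SD, n = 4). DLX2 (chr2:172099438-172102900, minus strand) was the highest with 41.4, 43.2, 39.1 and 40.3 RPKM in the control replicates and 18.8, 21.3, 19.9 and 21.6 RPKM in the SB-treated replicates. DLX2 fell to 49.8% (log2 fold change -0.97, SE 0.052, limma adjusted p = 6.65e-07), with no overlap. DLX1, its neighbour 9760 bases away, measured 13.4, 12.7, 12.4 and 12.3 RPKM in the control replicates and 6.63, 6.54, 6.95 and 6.32 RPKM in the SB-treated replicates. DLX1 fell to 52.1% (log2 fold change -0.85, SE 0.040, limma adjusted p = 3.77e-07), likewise without overlap. DLX5, a gene of jaw and bone, measured 9.67, 8.88, 8.45 and 9.47 RPKM in the control replicates and 4.92, 4.38, 4.90 and 4.50 RPKM in the SB-treated replicates. DLX5 fell to 51.2% (log2 fold change -0.83, SE 0.051, limma adjusted p = 1.22e-06), with the groups apart. DLX6, its neighbour, measured 5.39, 4.34, 4.67 and 4.58 RPKM in the control replicates and 2.58, 2.71, 2.68 and 2.59 RPKM in the SB-treated replicates, and fell to 55.7% (log2 fold change -0.65, SE 0.053, limma adjusted p = 6.21e-06). The DLX6 groups did not overlap, and 22.03% of its exon bases lie opposite DLX6-AS1. DLX3 and DLX4, the remaining pair, fell to 53.9% and 83.3% of control, DLX3 from a mean of 0.959 RPKM, and DLX4 lost its call without TMM factors (adjusted p = 0.0567).

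MSX1 and MSX2, genes of tooth and skull formation, were both lower. MSX2 measured 21.2, 18.3, 18.7 and 17.8 RPKM in the control replicates and 12.2, 13.8, 13.2 and 13.97 RPKM in the SB-treated replicates. MSX2 fell to 69.9% (log2 fold change -0.48, SE 0.061, limma adjusted p = 8.65e-05), with no overlap, and MSX1 fell to 73.4%. EMX1 and EMX2, genes of the cerebral cortex, gave ratios above 100%. EMX2, the higher of the pair, measured 2.41, 2.13, 2.11 and 1.85 RPKM in the control replicates and 2.29, 2.58, 2.46 and 2.16 RPKM in the SB-treated replicates, with overlapping groups and 112% of control (log2 fold change 0.11, SE 0.060, limma adjusted p = 0.126). It was called higher without control replicate 1 (adjusted p = 0.0181) and without TMM factors (adjusted p = 0.0193). EMX1 measured 1.25, 1.20, 1.27 and 1.23 RPKM in the control replicates and 1.39, 1.51, 1.74 and 1.92 RPKM in the SB-treated replicates. EMX1 rose to 133% (log2 fold change 0.24, SE 0.059, limma adjusted p = 0.00579), with every SB-treated replicate above the controls.

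SIX4, a gene of muscle and sense organs, was at 97.3% of control (log2 fold change -0.034, SE 0.053, limma adjusted p = 0.593), a value whose sign turned without the TMM factors and without control replicate 1. SIX2, the gene of nephron progenitors, fell to 86.2%, and SIX5 to 83.8% (adjusted p = 0.0345) with overlapping groups, a call lost without TMM factors (adjusted p = 0.197) and without any of control replicates 2 to 4 or SB-treated replicates 1 and 4 (adjusted p between 0.0608 and 0.0964). An antisense lncRNA covers 57.1% of the exon bases of SIX5.

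PAX genes were lower in 3 of 6 cases and higher in 1, where 32.6% of all genes were lower and 33.0% higher. Whether the PAX counts differ from those shares was not tested. PAX3, a gene of neural crest and muscle with the highest mean of the family over the 8 replicates, measured 6.56, 5.67, 5.998 and 5.23 RPKM in the control replicates and 5.36, 5.49, 5.05 and 5.58 RPKM in the SB-treated replicates. PAX3 was at 91.5% of control (log2 fold change -0.11, SE 0.059, limma adjusted p = 0.137), with overlapping groups, and was called lower without control replicate 4 (adjusted p = 0.0345). PAX2, a kidney gene, fell to 61.5%, PAX6, the eye gene, to 79.1%, and PAX9, a gene of teeth and thymus, to 75.4%, each without overlap (limma adjusted p = 3.44e-05, 7.78e-04 and 3.44e-04). Of the exon bases of PAX6 and PAX9, 25.4% each lie opposite a protein-coding neighbour, ELP4 and SLC25A21. PAX1, a gene of the vertebral column, measured 0.474, 0.532, 0.596 and 0.434 RPKM in the control replicates and 0.773, 0.677, 0.786 and 0.844 RPKM in the SB-treated replicates. PAX1 rose to 151% (log2 fold change 0.23, SE 0.045, limma adjusted p = 0.00144), without overlap, at a level under 1 RPKM. PAX7, at a control mean of 0.129 RPKM, did not pass the test (log2 fold change 0.026, adjusted p = 0.528), and after the length and GC correction it was called lower (log2 fold change -0.13, adjusted p = 0.0130).

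**Figure D4:**
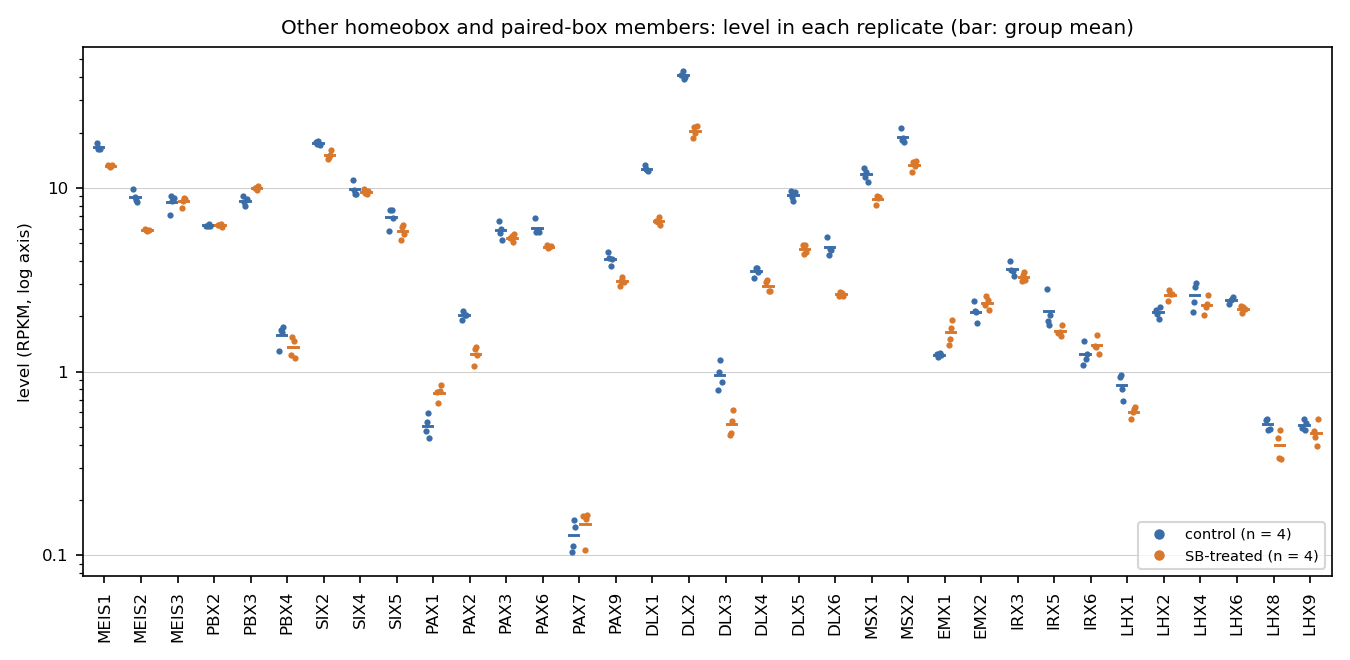
RPKM of members outside the HOX clusters on a log axis, with 1 point per replicate for control and SB-treated samples, and the means as bars. DLX2 has the highest control mean of these at 41.0 RPKM, and PAX7 the lowest at 0.129 RPKM.

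The IRX and LHX genes were low, and 1 of 3 IRX (33.3%) and 3 of 6 LHX genes were lower, against 32.6% of all genes, and 1 LHX gene was higher. IRX3, the highest IRX gene, measured 4.01, 3.58, 3.52 and 3.33 RPKM in the control replicates and 3.10, 3.34, 3.47 and 3.158 RPKM in the SB-treated replicates. IRX3 was at 90.6% of control (log2 fold change -0.11, SE 0.051, limma adjusted p = 0.0828), with overlapping groups, and was called lower without control replicate 4 (adjusted p = 0.0438). IRX5 fell to 77.9% (limma adjusted p = 0.0453) with overlapping groups, a call lost without TMM factors (adjusted p = 0.131), after the length and GC correction (adjusted p = 0.192), and without control replicate 4 or any SB-treated replicate (adjusted p between 0.0548 and 0.103). IRX6 did not pass the test (adjusted p = 0.172) but was called higher without control replicate 2 (adjusted p = 0.0445) and without TMM factors (adjusted p = 0.0424). LHX4, a pituitary gene and the LHX gene with the highest mean over the 8 replicates, measured 2.11, 2.38, 2.89 and 3.02 RPKM in the control replicates and 2.04, 2.25, 2.33 and 2.61 RPKM in the SB-treated replicates. LHX4 was at 88.6% (log2 fold change -0.12, SE 0.085, limma adjusted p = 0.240), its groups overlapping, and was called lower without control replicate 1 (adjusted p = 0.0353). Of its exon bases 30.7% lie opposite ACBD6. LHX1, LHX6 and LHX8, the last a gene of cholinergic neurons, fell to 71.4%, 89.3% and 77.0%, and LHX6 and LHX8 lost their calls without TMM factors (adjusted p = 0.351 and 0.109). LHX6 also lost it without control replicate 4 (adjusted p = 0.0534) or SB-treated replicate 2 (adjusted p = 0.0620), and LHX8 without control replicate 2 or 4 or SB-treated replicate 2 or 4 (adjusted p between 0.0509 and 0.107) and after the length and GC correction (adjusted p = 0.484). LHX2, a gene of eye and cortex, measured 2.17, 2.06, 1.95 and 2.25 RPKM in the control replicates and 2.41, 2.77, 2.65 and 2.66 RPKM in the SB-treated replicates. LHX2 rose to 125% (log2 fold change 0.22, SE 0.045, limma adjusted p = 0.00165), without overlap. LHX9 did not pass the test (adjusted p = 0.337).

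Whether ratios between members that lie side by side changed could not be decided after adjustment, because the test cannot give a small p. For 35 neighbouring pairs of members within 100000 bases, the log2 ratio of the pair was compared between groups with a two-sided exact permutation test of 4 against 4, whose smallest p is 0.0286. That p was reached by 17 pairs, and with Benjamini-Hochberg adjustment over the 35 pairs it became 0.0589, so 0 pairs passed 0.05. This does not show that neighbours changed alike. The ratio of HOXB4 to HOXB5 changed by 0.72 (SE 0.072) on the log2 scale, and that of HOXA7 to HOXA9 by 0.87 (SE 0.21). The ratio of HOXD9 to HOXD8 changed by -0.40 (SE 0.087). For DLX1 and DLX2 the change was 0.067 (SE 0.076, exact p = 0.400), and for DLX6 and DLX5 it was 0.12 (SE 0.075, exact p = 0.200).

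Noncoding RNAs of the HOX clusters were also lower in part. Of 23 listed, 11 had a row, and 7 of the 11 were lower (63.6%, against 32.6% of all genes) and 0 higher (median -0.25). HOTAIRM1, of the HOXA cluster, measured 37.6, 33.6, 35.0 and 33.4 RPKM in the control replicates and 17.2, 18.9, 17.1 and 17.6 RPKM in the SB-treated replicates. HOTAIRM1 fell to 50.7% (log2 fold change -0.94, SE 0.048, limma adjusted p = 5.92e-07), without overlap. HOXA11-AS and HOXB-AS3 fell to 63.7% and 65.1% (adjusted p = 1.29e-05 and 4.53e-06). HOTAIR, transcribed from the HOXC cluster, fell to 65.1%, and HAGLR of the HOXD cluster was at 95.2% (adjusted p = 0.215). HOXA10-AS, HOXA-AS3 and HOXC13-AS fell as well, and HOXA-AS2, HOXC-AS1 and HOXC-AS2 did not pass the test.

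Other TALE genes and partner genes were called in both directions. Of 16 TALE relatives and partners of the homeobox proteins, 7 were higher (43.8%, against 33.0% of all genes) and 5 lower (31.2%, against 32.6%), with a median of -0.027. EYA1, a transcriptional coactivator, rose to 139% of control (log2 fold change 0.43, SE 0.040, limma adjusted p = 1.37e-05), from 8.57 ± 0.3003 to 11.9 ± 0.491 RPKM (SD, n = 4). SALL4, a stem cell factor, rose to 157% (adjusted p = 5.06e-05), and PKNOX2, a TALE gene, fell to 69.5% (adjusted p = 1.86e-04). DACH1, a partner of EYA proteins, fell to 72.7%. Of 69 other homeobox genes with a row among 100 listed, 18 were higher (26.1%) and 22 lower (31.9%), with a median of -0.032, shares at or below the 33.0% and 32.6% of all genes. POU3F2 and ISL1, genes of neurons, fell to 55.6% and 57.3%, and POU4F1, of sensory neurons, rose to 150.03% (adjusted p = 3.41e-06, 3.78e-06 and 2.78e-05).

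The writers and readers of HOX chromatin gave medians near that of all genes. Of 31 Polycomb subunits, 11 were higher (35.5%, against 33.0% of all genes) and 10 lower (32.3%, against 32.6%), with a median of 0.0069. Of 17 genes listed for MLL and menin, 7 were higher (41.2%) and 5 lower (29.4%), with a median of 0.051. That list also holds related chromatin factors that are not subunits, DOT1L and ASH1L among them. PHF19 and PHF1, accessory subunits of Polycomb complex PRC2, rose to 178% and 154%, and CBX6, a reader of PRC1, to 143% (limma adjusted p = 1.01e-05, 2.21e-05 and 6.67e-05). EZH2 and EED, core subunits of PRC2, fell to 83.6% and 78.5%, and JARID2 and RBBP7, which bind it, to 72.4% and 74.5% (adjusted p = 9.42e-04, 1.84e-05, 3.78e-06 and 2.14e-05). KMT2B, an MLL methyltransferase, rose to 156%, DOT1L, which methylates histone H3, to 139%, and PSIP1, which links MLL to chromatin, fell to 71.2% (adjusted p = 2.31e-05, 3.31e-05 and 0.00247).

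Genes of retinoic acid signalling were lower in 9 of 16 cases and higher in 5 (19 listed, median -0.23), or 56.2% and 31.2%, against 32.6% and 33.0% of all genes. ALDH1A2, which makes retinoic acid, measured 35.5, 31.2, 30.0 and 31.9 RPKM in the control replicates and 20.8, 19.8, 20.2 and 20.0 RPKM in the SB-treated replicates. ALDH1A2 fell to 62.8% (log2 fold change -0.64, SE 0.050, limma adjusted p = 4.83e-06), without overlap. CYP26A1, which degrades retinoic acid, and the receptor RXRG fell to 49.6% and 40.5% (adjusted p = 6.32e-06 and 2.23e-06). The receptors RARB and RARG fell to 80.0% and 67.0%, and RXRA rose to 131%. Another degrading enzyme, CYP26B1, rose to 186%.

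**Figure D5:**
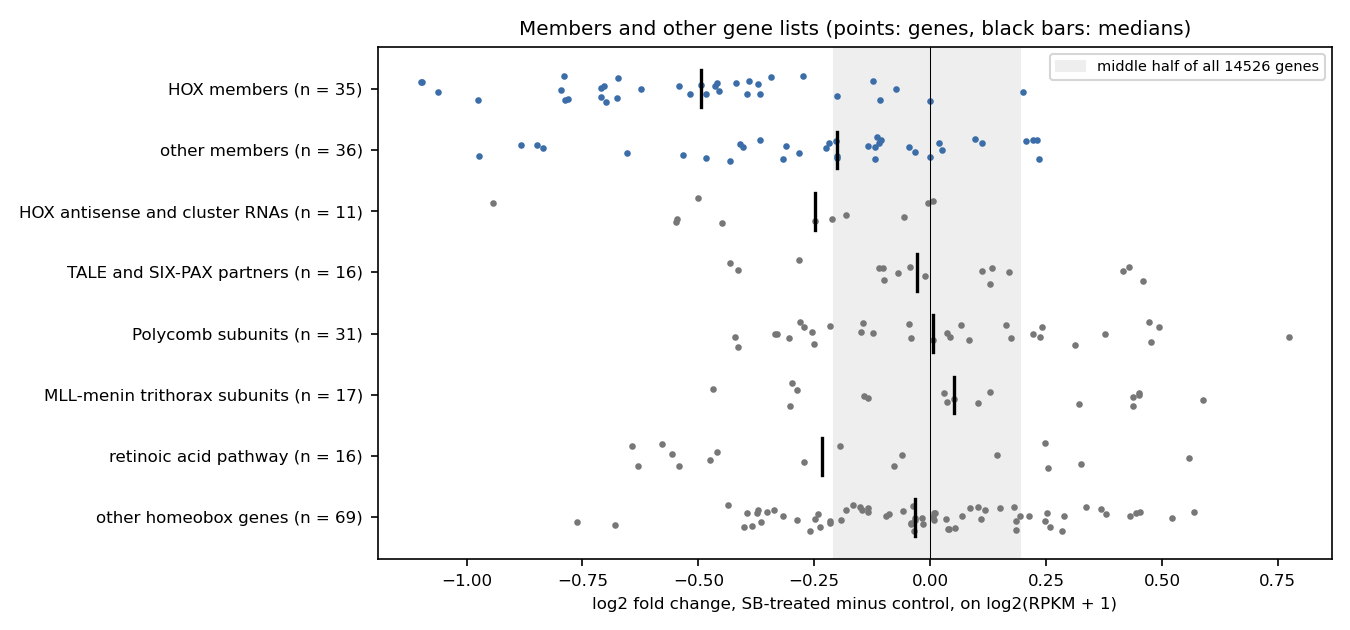
Log2 fold changes (SB-treated minus control, log2(RPKM + 1)) of the members and of the genes of each list, with 1 point per gene, the median as a bar and the interquartile range of all genes as a grey band. The medians are -0.49 for HOX genes and -0.20 for other members, against 0.0069 and 0.051 for the Polycomb and MLL lists.

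Markers of other cell types moved with SB in part, and their part in the falls of the homeobox genes was not tested. Of 10 neuronal markers 6 had a row, and their summed level was 90.5 to 99.8 RPKM in control and 64.4 to 66.7 RPKM in SB-treated replicates. The neurofilament genes NEFM and NEFL fell to 46.7% and 64.1%. INA, TUBB3, MAP2 and SYP rose, INA to 172% and MAP2 from a control mean of 0.278 RPKM. NEFH, ELAVL3, ELAVL4 and STMN2 had no row. Of 10 fibroblast markers 4 had a row, with sums of 6.63 to 8.97 and 6.62 to 6.98 RPKM. COL3A1 fell to 60.05%, and LUM rose to 176% from a control mean of 0.347 RPKM. COL1A1 and PDGFRA did not pass the test (limma adjusted p = 0.133 and 0.118). Of 10 epithelial markers 6 had a row, with sums of 57.8 to 68.2 and 71.6 to 73.0 RPKM. Of these 6, 3 were higher and 2 lower, where 33.0% of all genes were higher and 32.6% lower. The keratin genes KRT8 and KRT18 held most of the sum, at control means of 29.1 and 33.9 RPKM. KRT8 rose to 130.3%, and KRT18 did not pass the test (95.3% of control, limma adjusted p = 0.293). CLDN4 and ESRP1 rose from under 1 RPKM. CDH1 and CLDN7 fell to 61.7% and 58.8%, also from under 1 RPKM (control means 0.867 and 0.806 RPKM). EPCAM, KRT7 and KRT19 of that list, and DCN and THY1 of the fibroblast list, had no row. Fewer cells of a type and less RNA per cell cannot be told apart in these bulk samples. Without control replicate 1, 54 members were lower and 6 higher, and the median of the HOX genes was -0.47.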

How the data were processed

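RNA from 8 samples was sequenced by the authors as 50-base single reads. The reads were mapped to hg38 with TopHat2 2.1.0 and counted per gene with featureCounts 1.5.0, a gene was kept if its CPM passed 1 in 2 or more samples, and libraries were scaled with TMM in edgeR 3.16.5. The authors deposited RPKM per gene and library for 14526 genes. Columns of the authors' fold changes, log2 CPM, p-values and FDR were not used, and 0 columns of per-sample values were left unused.

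Whole reads were recovered from the RPKM for 100% of genes, within 0.0005 reads, to describe depth and to run voom as an alternative. Members and lists were chosen with earlier results of these data known. Log2(RPKM + 1) was compared with limma 3.58.1 in R 4.3.3 (lmFit, eBayes) with Benjamini-Hochberg adjustment over all 14526 genes, at an adjusted p of 0.05. No further filter was applied, so genes are those passing the authors' own filter. Single values were compared with a two-sided exact permutation test of 4 against 4. Fits were also run on simulated counts in which few genes changed and every gene had the same dispersion. That setting is simpler than these data, so no conclusion is drawn from it. Members given with all 8 values are the 24 with the largest change among called members and the highest of each family. Some items that enter the counts are not reported here by name or drawn. HOXD8, HOXD9, HOXD3, PBX3, PAX1, EMX1 and LHX2 were also given so, chosen after their values were seen. From each list the up to 3 called genes with the largest change are named, and others were named after their values were seen. Gene positions and overlaps came from GENCODE release 44, and promoters from RefSeq. Alternatives were a pseudocount of 0.1, no TMM factors, filters on low values, an intensity trend, the replicate block, voom, each replicate left out, and, chosen after seeing the data, a length and GC correction.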

Additional observations from a re-analysis of the deposited data

Results flagged for a closer look

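Replicates far from the rest of their group were looked for in 120 groups of 4 replicates, as the gap of the outermost replicate to its neighbour over the range of the group, against the 95% critical value of Dixon's test. Chance passes about 1 in 20 groups, or 6 of the 120, and 7 passed. Control replicate 1 was the replicate in 5 of the 7. Its gap ratio was 0.873 for HOXA13, 0.853 for PKNOX2, 0.841 for CBX6, 0.886 for POU3F2 and 0.882 for INA. SB-treated replicate 1 gave 0.837 for HOXA11, and SB-treated replicate 2 gave 0.86 for PHF19.
Without the replicate concerned, the log2 fold change was -0.95 for HOXA13 and -0.76 for HOXA11, both still called lower by limma.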

How the results depend on the processing

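Members called lower were 52, between 46 and 53 in the other settings and 48 to 54 with a replicate left out. Members called higher were 5, and 5 to 6 with a replicate left out. Without TMM factors they were 8 and 46 were lower, and the median log2 ratio of means of all genes moved from 0.0039 to 0.109. In the same setting HOXD3 was at 0.063 and SIX4 at 0.062, both above 0. For HOXD3 voom gave 0.0051 and voom with the replicate block 0.0062. The length and GC correction, for which 91.5% of genes had a GC value, turned HOXA7 to 0.0038, HOXD3 to 0.020, PBX2 to -0.16 and PAX7 to -0.13, PBX2 and PAX7 passing the test there, and left 51 members lower. With a replicate left out, the log2 fold change ranged from -0.045 to 0.023 for HOXD3, from -0.045 to 0.054 for MEIS3, from -0.0047 to 0.0090 for PBX2 and from -0.058 to 0.017 for SIX4. The cause of these changes was not tested. The replicate number as a block gave 53 lower and 5 higher, LHX4 being the member added, and with voom the block ended the call of LHX8 (adjusted p = 0.0526). Same-numbered replicates did not deviate together throughout, with correlations of 0.38, 0.33, 0.17 and -0.16 for numbers 1 to 4, so the numbers were not taken as a pairing. A minimum mean of 10 reads removed no gene. Of the 8 members under 1 RPKM, 5 were called. Some of the 8 rest on few reads, as few as 21 in a library for HOXA2, while LHX1 had 146 or more in each.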
